A study of Mus musculus with 6 samples.

Results

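The genes described here encode oxygen-dependent demethylases and hydroxylases of histones, DNA, RNA and proteins, in MEFs, which are fibroblasts grown from mouse embryos. Members were the rows whose symbol names a KDM2 to KDM8, JMJD, TET, ALKBH, FTO, PHF2, PHF8 or RIOX gene, with rows sharing a name summed. A Y-linked KDM5 gene was left out. The rule gave 36 genes of the 18134 names in the count table, and all 36 passed the filter on low counts. Total RNA was sequenced from 3 libraries of the Ufl1-ko genotype (Ufl1-KO below) and 3 control libraries labelled NC, an abbreviation that is not spelled out. Ufl1 encodes the ligase that attaches the ubiquitin-like protein UFM1 to its targets. The series title names MEFs, UFMylation gene knockdown and 24 h of hypoxia, but no single library carries an oxygen label, so only genotypes are compared. The labels name no line, clone, promoter or separate culture. A difference between cell lines therefore cannot be told apart from genotype, and p-values reflect nothing but library-to-library spread, which may be technical.

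These enzymes use molecular oxygen, ferrous iron and 2-oxoglutarate. JmjC-domain KDM enzymes oxidise methyl groups of histone lysines, which then leave as formaldehyde, and many AlkB enzymes and FTO do so on bases of DNA or RNA. TET enzymes oxidise the methyl group of 5-methylcytosine in steps, and the oxidised group stays on the base until repair or replication removes it. Other JmjC enzymes hydroxylate amino acid side chains that keep the hydroxyl group. Several of the JmjC genes are known HIF target genes in other cells, HIF being the hypoxia-inducible transcription factor, and KDM5A and KDM6A are known as enzymes whose activity drops when oxygen falls. The values below are mRNA levels and do not measure enzyme activity.

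Libraries held 15887011 to 21831860 counts. Ufl1 was at 3.08, 3.76 and 4.60 CPM (counts scaled to TMM-adjusted library totals) in the Ufl1-KO libraries, against 22.95, 27.01 and 26.97 CPM in the NC libraries, with a log2 fold change of -2.75 (SE 0.15, edgeR adjusted p = 1.34e-06). NC replicate 1 stood apart from the other NC libraries, with a chi-square per gene of 29.9 and 22.5 against them, where NC replicates 2 and 3 gave 3.58 against each other. Values without it are given for part of the members. The Y-linked gene Uty averaged 32.5 ± 0.65 CPM in Ufl1-KO and 31.9 ± 1.73 CPM in NC (SD, n = 3 each), so reads of a Y chromosome gene were present in both groups, in which Kdm5c, Kdm6a and Phf8 are X-linked. Other Y-linked genes differed between the groups. Ddx3y was higher (log2 fold change 0.56), with means of 70.0 CPM in Ufl1-KO and 47.5 CPM in NC. Eif2s3y was lower (-1.11), with means of 3.39 CPM in Ufl1-KO and 7.32 CPM in NC. Summed fibroblast markers ran from 2157 to 2258 FPKM in Ufl1-KO and from 3478 to 3963 FPKM in NC. Of 10 tested markers 8 were lower, Vim (vimentin, log2 fold change -0.96) among them, and 1, S100a4 (0.45), was higher. Vim alone averaged 1099 FPKM in Ufl1-KO and 1889 FPKM in NC. Thy1 did not pass, at means of 0.541 FPKM in Ufl1-KO and 0.451 FPKM in NC. Lum, at most 0.046 FPKM in any library, was not tested. FPKM is the deposited level per length of transcript. Summed endothelial markers were at 1.08 to 1.24 FPKM in Ufl1-KO and 1.07 to 1.40 FPKM in NC, with Emcn at 0 in all libraries and Pecam1 lower (log2 fold change -2.81) at means of 0.0527 FPKM in Ufl1-KO and 0.321 FPKM in NC. Summed blood cell markers were at 25.3 to 28.3 FPKM in Ufl1-KO and 25.7 to 33.3 FPKM in NC, with Cd3e at 0 and Ptprc at or under 0.137 FPKM in each library. Within that sum Cd68 (log2 fold change -0.84) and Csf1r (-0.94) were lower and Cd14 (0.74) was higher. Summed epithelial markers were at 231.7 to 236.3 FPKM in Ufl1-KO and 195.6 to 256.5 FPKM in NC, of which Krt18 alone held 168.9 to 226.8 FPKM and Epcam at most 0.727 FPKM. Krt14 (-1.08) was lower and Cdh1 (0.70) was higher. Summed pluripotent cell markers were at 2.02 to 2.85 FPKM in Ufl1-KO and 1.597 to 1.83 FPKM in NC, with Dppa4 and Zfp42 at 0. The part of these marker differences in the results below was not tested. In bulk RNA, fewer cells of a type and less RNA per cell cannot be told apart.

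Of the 36 members, 22 were lower in Ufl1-KO, 5 were higher and 9 did not pass the test (edgeR quasi-likelihood test, adjusted p under 0.05). Calls were common in this comparison: 66.7% of all 12224 tested genes passed, 33.3% higher and 33.4% lower. The members' shares were 13.9% higher and 61.1% lower. Their median log2 fold change was -0.43, against 0.00 over all tested genes. The CPM ranges of the groups did not overlap for 28 members, or 77.8%, against 71.7% of all tested genes. At least 2-fold changes were called for 5 members, or 13.9%, against 17.3% of all tested genes. The falls were therefore frequent but mostly under 2-fold, and Tet1, Jmjd6 and Tet2 were the 3 members lower by more than that. Without NC replicate 1, Kdm4c (log2 fold change -1.045) and Fto (-1.006) were also lower by more than 2-fold. With libraries scaled by their totals alone, Jmjd6 (-0.98) and Tet2 (-0.86) were lower by less than 2-fold.

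**Figure D1:**
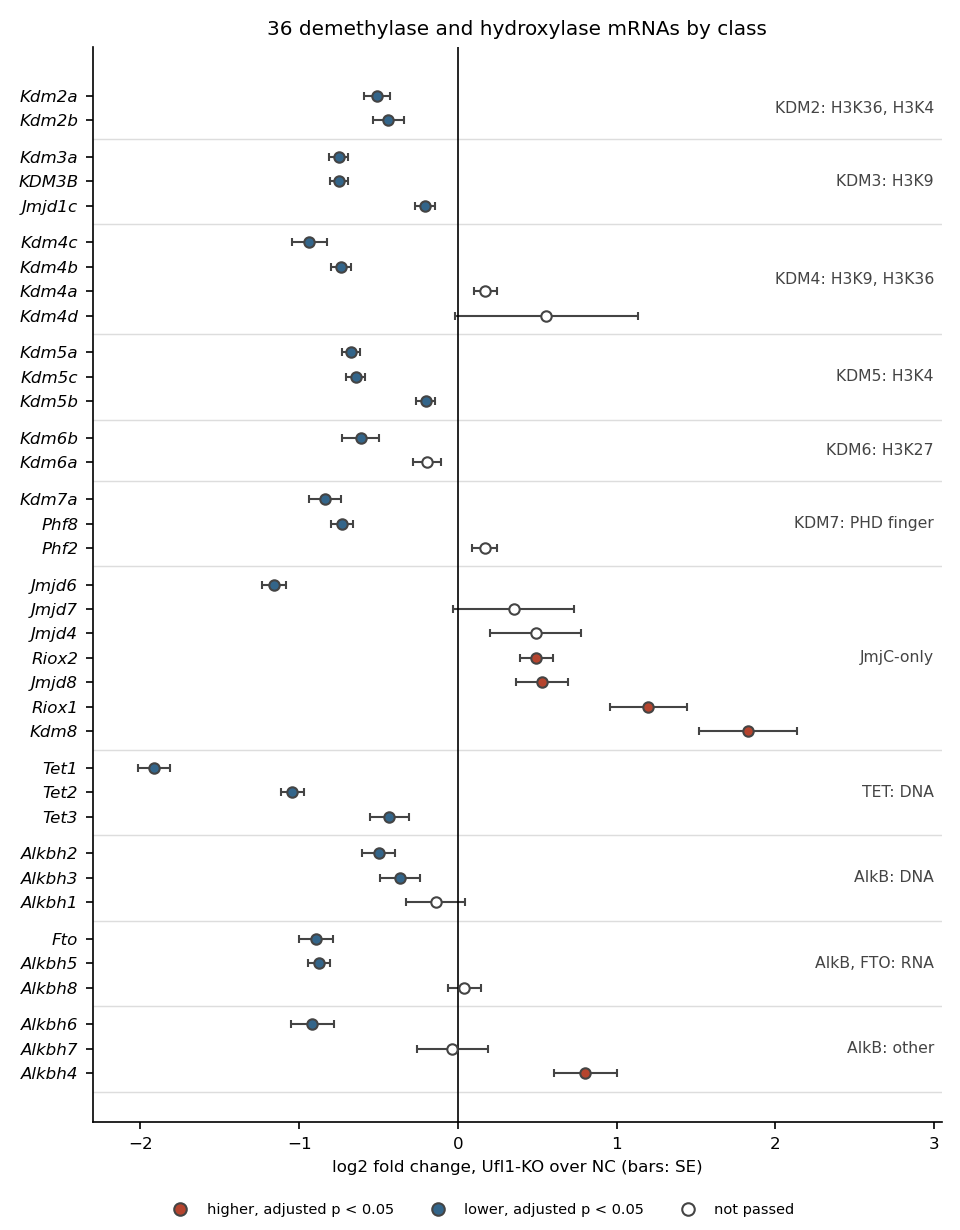
Log2 fold change, Ufl1-KO over NC, of the 36 members with its SE (bars), grouped by class; filled points passed adjusted p under 0.05. Of the 36, 22 lie to the left as called lower, from Tet1 at -1.91 to Kdm5b at -0.20, and 5 to the right as called higher, up to Kdm8 at 1.83.

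Direction differed with the count level, in CPM and so not per length. The NC values that set these levels also enter the fold change, so level and direction are not independent, for members or for all genes. Of the 21 members above 50 CPM in NC, 19 were lower and 0 higher, where 45.8% of all genes at that level were lower and 25.5% higher. Of the 7 members at 10 to 50 CPM, 2 were lower and 1 higher, where 27.1% of all genes at that level were lower and 40.7% higher. Of the 8 members under 10 CPM in NC, 4 were higher and 1 lower, where 33.4% of all such genes were higher and 25.8% lower. The summed level of all members was 661.5, 662.3 and 662.6 FPKM in the Ufl1-KO libraries, against 926.6, 956.9 and 952.9 FPKM in the NC libraries. The groups did not overlap, and the Ufl1-KO mean was 70.0% of the NC mean. No test was run on these sums. Jmjd6 was the most abundant member in both groups, holding 15.7% of the summed level in Ufl1-KO and 21.1% in NC. Alkbh5, Kdm3a, Kdm2a and Fto followed in the same order in both groups, at 71.9, 71.0, 63.9 and 33.0 FPKM in Ufl1-KO and 116.4, 106.6, 77.2 and 54.2 FPKM in NC. Of these neighbours Alkbh5 and Kdm3a lay within their spread in Ufl1-KO (SD 1.91 and 3.26 FPKM).

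**Figure D2:**
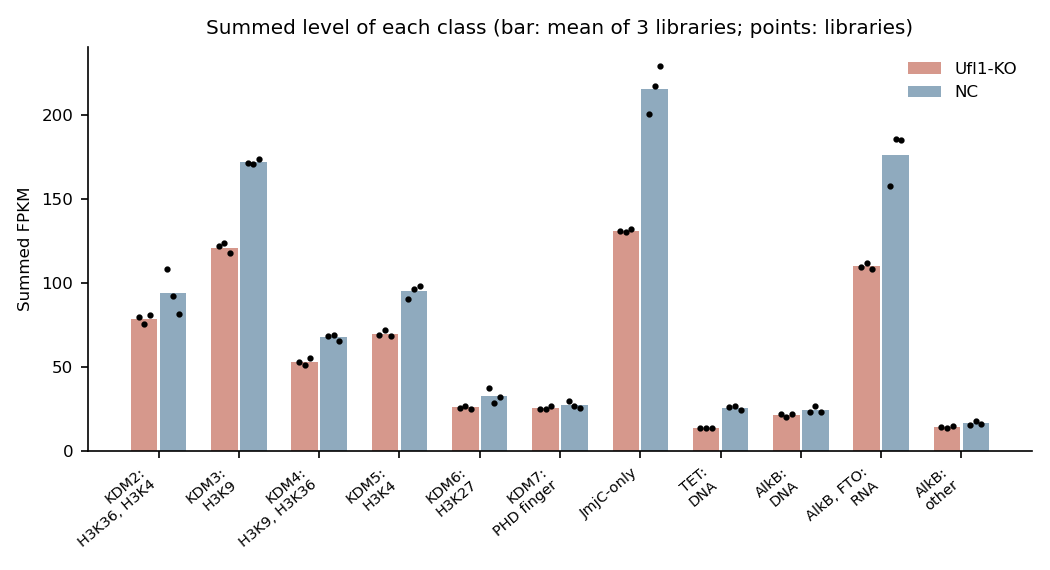
Summed FPKM of each class in Ufl1-KO and NC; bars are means of 3 libraries and points are the libraries. The TET class stands at 13.4 FPKM in Ufl1-KO and 25.5 FPKM in NC, and the KDM7 class, whose libraries overlap, at 25.4 FPKM in Ufl1-KO and 27.3 FPKM in NC.

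Promoters were read for the members with the largest change in each direction, Tet1 and Kdm8, and for Kdm3a and Kdm4c, which are known from other cells as HIF-1 targets. Kdm4b, also listed as such a target, had no promoter entry and was not read. The windows run from 250 bases before to 50 bases after the first listed RefSeq start (GRCm38.p6, the mm10 assembly) and are written 5′ to 3′ on the gene's strand. Capitals mark ACGTG or GCGTG on either strand, the core letters of a hypoxia response element. The windows are chr10:62887275-62887574 (minus strand) for Tet1, chr7:125444370-125444669 (plus) for Kdm8, chr6:71632868-71633167 (minus) for Kdm3a and chr4:74242247-74242546 (plus) for Kdm4c.
Tet1: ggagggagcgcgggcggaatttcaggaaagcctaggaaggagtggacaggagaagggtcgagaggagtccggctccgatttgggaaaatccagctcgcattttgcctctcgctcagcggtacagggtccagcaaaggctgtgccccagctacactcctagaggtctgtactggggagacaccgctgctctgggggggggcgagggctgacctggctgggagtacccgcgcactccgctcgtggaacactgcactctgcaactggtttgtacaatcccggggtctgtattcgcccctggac
Kdm8: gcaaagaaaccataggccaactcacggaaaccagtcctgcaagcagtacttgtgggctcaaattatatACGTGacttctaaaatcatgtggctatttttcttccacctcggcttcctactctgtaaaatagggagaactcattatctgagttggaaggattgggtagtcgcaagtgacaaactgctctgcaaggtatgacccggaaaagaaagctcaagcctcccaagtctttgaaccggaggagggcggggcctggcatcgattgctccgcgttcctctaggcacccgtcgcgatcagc
Kdm3a: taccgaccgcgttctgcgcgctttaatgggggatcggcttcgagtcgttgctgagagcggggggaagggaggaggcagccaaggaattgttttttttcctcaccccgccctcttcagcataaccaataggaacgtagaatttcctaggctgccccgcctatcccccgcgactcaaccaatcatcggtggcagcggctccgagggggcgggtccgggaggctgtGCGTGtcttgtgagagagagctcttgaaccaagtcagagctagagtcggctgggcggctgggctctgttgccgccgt
Kdm4c: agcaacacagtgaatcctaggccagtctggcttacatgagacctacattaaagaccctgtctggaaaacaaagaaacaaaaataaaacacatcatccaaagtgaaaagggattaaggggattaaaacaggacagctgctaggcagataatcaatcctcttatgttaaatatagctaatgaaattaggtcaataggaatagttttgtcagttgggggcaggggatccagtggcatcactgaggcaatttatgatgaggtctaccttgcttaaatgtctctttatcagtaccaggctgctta
The Kdm3a window held 1 match, GCGTG starting 27 bases before the start site, and the Kdm8 window held 1 match, ACGTG starting 182 bases before it. The Tet1 and Kdm4c windows held 0. Kdm3a has 3 promoter entries and Kdm4c has 2, of which only the first listed was read. The Tet1 window lies inside the GENCODE M21 gene span (chr10:62804570-62908996, minus strand), and the sequence at the 5′ end of that span was not read. Of the 36 members 31 had a promoter entry, and 18 of these 31 (58.1%) held either motif, against 43.8% of 27025 genes with a window of 300 bases. ACGTG stood in 32.3% of the member windows and 19.7% of all windows. GCGTG stood in 51.6% of the member windows and 32.5% of all windows. The member windows were also richer in G and C, with a median of 59.7% against 52.7%. By call, 11 of 17 lower, 4 of 5 higher and 3 of 9 unpassed members held a match. The members without an entry, Kdm2a, KDM3B, Kdm4b, Kdm5a and Kdm6b, were all called lower. A match is a string of letters and not a binding site.

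The TET enzymes, which begin active DNA demethylation, were lower in all 3 members. Tet1 was at 13.8, 13.7 and 14.3 CPM in Ufl1-KO, against 47.2, 58.6 and 51.9 CPM in NC. Every Ufl1-KO library lay below every NC library, and the level was 3.77-fold lower (log2 fold change -1.91, SE 0.10, edgeR adjusted p = 9.95e-07), the largest fall among the members. Its GENCODE M21 gene spans chr10:62804570-62908996 (minus strand, mm10). It is known as the TET enzyme of pluripotent cells with a full-length form and a shorter somatic form. Tet2, which lacks the CXXC DNA-binding domain of its relatives, was at 38.8, 34.9 and 38.1 CPM in Ufl1-KO, against 78.8, 75.4 and 76.3 CPM in NC (log2 fold change -1.04, SE 0.07). Tet3 had the highest FPKM mean of the family in both groups, 7.68 in Ufl1-KO and 9.21 in NC. In NC the means of Tet1 (8.46 FPKM) and Tet2 (7.82 FPKM) both lay within the Tet3 SD of 1.84 FPKM. Tet3 counts gave 77.9, 77.9 and 74.5 CPM in Ufl1-KO against 127, 89.7 and 93.8 CPM in NC (log2 fold change -0.43, SE 0.12, edgeR adjusted p = 0.0115). NC replicate 1 was the highest Tet3 library, and without it the log2 fold change was -0.25. When libraries were scaled by their totals alone the Tet3 call was lost (edgeR adjusted p = 0.104), as it was in the FPKM fits (limma adjusted p from 0.149 to 0.203).

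The length that the deposited values imply differed between libraries for Tet1. Count divided by FPKM and library total gives a transcript length, and for 9 of the 29 members with at least 100 counts and 1 FPKM in every library this length was constant within 1%, as it was for 35.2% of all 9331 such rows. For Tet1 it was 13455, 9383 and 8961 bases in Ufl1-KO, against 7211, 5035 and 5742 bases in NC. All 3 Ufl1-KO libraries were longer than all 3 NC libraries. Tet2 had 9155 to 9179 bases in Ufl1-KO and 9164 to 9179 bases in NC, with the groups overlapping. GENCODE M21 lists 8 coding Tet1 transcripts of 361 to 14369 bases, and the deposited Tet1 FPKM is not scaled by a single length. The Tet1 mean FPKM, 1.44 ± 0.32 in Ufl1-KO and 8.46 ± 2.32 in NC (SD, n = 3 each), differed 5.87-fold where the TMM-scaled counts differed 3.77-fold. These folds differ in library scaling as well as in length. With library size scaling the log2 fold change of the counts was -1.73, against -1.91 with TMM. Alkbh8 was the only other eligible member that was longer in every Ufl1-KO library by over 5%, with 4576, 4735 and 4345 bases in Ufl1-KO and 4072, 3714 and 3048 bases in NC. Among all eligible rows 2.13% were longer by this measure and 1.25% shorter, and 0 members were shorter by over 5%. Kdm5a (8573 to 9214 bases in Ufl1-KO, 7050 to 8245 bases in NC) and Kdm6a (3577 to 3940 bases in Ufl1-KO, 3320 to 3454 bases in NC) were also longer without overlap, by a gap of less than 5%. By gaps of less than 5% 3 eligible members were shorter without overlap, Kdm2b (4495 to 4666 bases in Ufl1-KO, 4755 to 4902 bases in NC), Kdm5c (5528 to 5767 bases in Ufl1-KO, 5783 to 5902 bases in NC) and Jmjd6 (1491 to 1523 bases in Ufl1-KO, 1528.5 to 1557 bases in NC). Members below the limits on counts and FPKM are left out of these comparisons. This measure and its limits were chosen after the values were seen, and it was not tested.

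**Figure D3:**
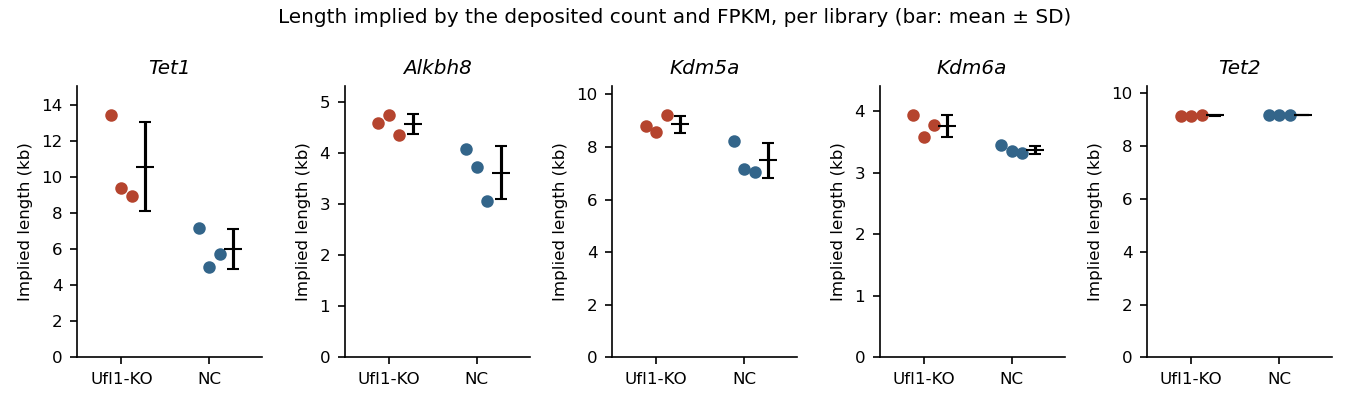
Transcript length in kilobases implied by the deposited count and FPKM in each library, for 5 members, with mean and SD. Tet1 points lie at 8961 to 13455 bases in Ufl1-KO and 5035 to 7211 bases in NC, while Tet2 is level across libraries.

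Among the 17 lysine demethylase genes of the KDM2 to KDM7 families, 13 were lower, 0 higher and 4 did not pass. Of all tested genes 33.4% were lower and 33.3% higher. With library size scaling and in the FPKM fits Kdm4a and Phf2 were called higher. The lower calls of Jmjd1c, Kdm5b, Kdm2a and Kdm2b ended in the FPKM fits. The summed level was 372.6, 373.5 and 372.6 FPKM in Ufl1-KO, against 504.9, 483.4 and 475.8 FPKM in NC, without overlap. The KDM3 family removes methyl groups from H3K9, a mark of silent chromatin, and all 3 members fell. Kdm3a was at 324, 331 and 303 CPM in Ufl1-KO, against 522, 531 and 561 CPM in NC (log2 fold change -0.75, SE 0.06, edgeR adjusted p = 9.76e-06). Kdm3a spans chr6:71588972-71632990 (minus strand), and the GCGTG shown above stands in its promoter window. KDM3B, written in capitals in the files, was at 176, 179 and 183 CPM in Ufl1-KO, against 298, 308 and 297 CPM in NC (log2 fold change -0.75, SE 0.06). These paralogs had nearly equal fold changes. Jmjd1c, the third paralog, whose demethylase activity is debated, was at 153, 148 and 139 CPM in Ufl1-KO and 175, 165 and 169 CPM in NC. Its log2 fold change of -0.21 (SE 0.06) was small, and the call ended with library size scaling (edgeR adjusted p = 0.692), in the FPKM fits (limma adjusted p from 0.883 to 0.901) and without Ufl1-KO replicate 2 (adjusted p = 0.0543) or 3 (adjusted p = 0.0852).

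The KDM4 family, which acts on trimethylated H3K9 and H3K36, was split. Kdm4c was at 50.1, 50.9 and 49.9 CPM in Ufl1-KO, against 79.7, 109.6 and 99.3 CPM in NC (log2 fold change -0.94, SE 0.11, edgeR adjusted p = 7.91e-05). Kdm4b was at 85.8, 86.5 and 87.9 CPM in Ufl1-KO, against 152, 140.4 and 141 CPM in NC (log2 fold change -0.74, SE 0.06). Groups did not overlap for either gene. With Kdm3a these genes are the 3 members listed as HIF-1 targets from other work, all 3 of them lower. Lower calls were also made for 13 of the 17 KDM2 to KDM7 genes, 61.1% of all members and 33.4% of all tested genes. Kdm4a, the paralog of Kdm4b and Kdm4c, was at 65.0, 62.0 and 67.1 CPM in Ufl1-KO and 58.6, 59.8 and 53.9 CPM in NC. It did not pass (log2 fold change 0.17, SE 0.07, edgeR adjusted p = 0.0618) although its groups did not overlap. It was called higher with library size scaling (0.35), in the FPKM fits (0.33 to 0.35) and without NC replicate 1 (0.20). Kdm4d, known for its expression in testis, was covered by few reads, at 8, 11 and 17 counts in Ufl1-KO and 12, 2 and 5 counts in NC, and did not pass.

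The KDM5 family removes methyl groups from H3K4, a mark of active promoters. Kdm5a was at 187, 192 and 180.0 CPM in Ufl1-KO, against 292, 302 and 297 CPM in NC (log2 fold change -0.67, SE 0.06, edgeR adjusted p = 1.22e-05). The X-linked Kdm5c was at 157, 159 and 161 CPM in Ufl1-KO, against 236, 250.3 and 258 CPM in NC (log2 fold change -0.64, SE 0.06). Both lay below NC in every library. Kdm5b, the growth-associated member, was at 112, 114 and 111 CPM in Ufl1-KO and 128, 125 and 134 CPM in NC, a log2 fold change of -0.20 (SE 0.06, edgeR adjusted p = 0.0145). With library size scaling it was at -0.02 (adjusted p = 0.741) and in the FPKM fits at -0.04, and the call ended without Ufl1-KO replicate 1 or 3 or NC replicate 3 (adjusted p from 0.0645 to 0.0649).

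The H3K27 demethylases oppose the Polycomb mark. Kdm6b, a gene of inflammatory and stress responses, was at 103, 99.7 and 98.8 CPM in Ufl1-KO, against 184, 129.8 and 147 CPM in NC (log2 fold change -0.61, SE 0.11, edgeR adjusted p = 0.00127). NC replicate 1 was the highest library, and without it the log2 fold change was -0.45. Its X-linked paralog Kdm6a was at 34.2, 37.6 and 31.7 CPM in Ufl1-KO and 40.1, 37.3 and 40.9 CPM in NC, where the groups overlapped and the test did not pass (log2 fold change -0.19, SE 0.09). The difference between the paralogs was not tested.

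The KDM2 enzymes, which act on H3K36 and bind unmethylated CpG DNA through a CXXC domain, fell together. Kdm2a was at 343, 338 and 342 CPM in Ufl1-KO, against 554, 449.7 and 452 CPM in NC (log2 fold change -0.51, SE 0.08, edgeR adjusted p = 0.000622). Kdm2b, which brings a variant Polycomb complex to CpG islands, was at 64.8, 64.2 and 62.3 CPM in Ufl1-KO, against 99.4, 77.5 and 82.1 CPM in NC (log2 fold change -0.44, SE 0.10). NC replicate 1 was highest for both, and without it the log2 fold changes were -0.39 and -0.31. In the FPKM fits neither passed, with limma adjusted p from 0.0747 to 0.106 for Kdm2a and from 0.193 to 0.231 for Kdm2b.

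Of the KDM7 family, whose PHD finger reads methylated H3K4, 2 members fell. Kdm7a, an H3K9 and H3K27 demethylase, was at 31.9, 32.0 and 29.8 CPM in Ufl1-KO, against 64.4, 51.2 and 51.6 CPM in NC (log2 fold change -0.84, SE 0.10, edgeR adjusted p = 0.000107). The X-linked Phf8, which acts on H3K9 and H4K20, was at 37.5, 39.8 and 39.5 CPM in Ufl1-KO, against 64.4, 66.7 and 62.4 CPM in NC (log2 fold change -0.73, SE 0.07). The groups stood well apart for both. Phf2 was at 73.0, 70.8 and 75.2 CPM in Ufl1-KO and 71.0, 63.7 and 60.1 CPM in NC and did not pass (log2 fold change 0.17, SE 0.08). As for Kdm4a, it was called higher with library size scaling (0.35), in the FPKM fits (0.32 to 0.35) and without NC replicate 1 (0.25).

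**Figure D4:**
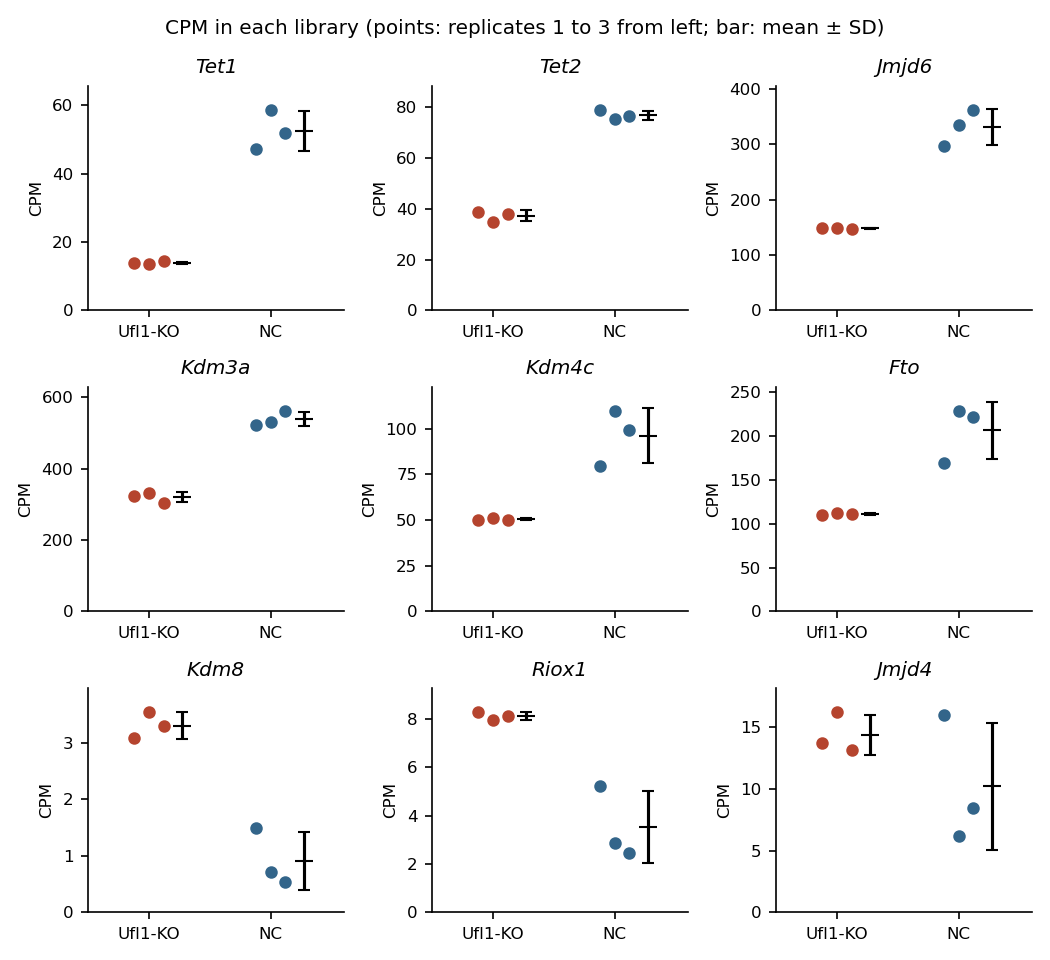
CPM of 9 members in each library, Ufl1-KO left of NC, with mean and SD. Ufl1-KO points lie close together, as for Jmjd6 at 147 to 149 CPM, and NC replicate 1 (leftmost NC point) stands apart for Fto, Jmjd4, Riox1 and Kdm8.

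The JmjC-only genes encode hydroxylases that lack the chromatin reader domains of most KDM families, and 4 of the 5 members that rose were among these 7. Kdm8, also called JMJD5, an arginine hydroxylase first described as an H3K36 demethylase, was at 3.08, 3.54 and 3.29 CPM in Ufl1-KO, against 1.502, 0.706 and 0.545 CPM in NC. Every Ufl1-KO library exceeded every NC library, and the level was 3.55-fold higher (log2 fold change 1.83, SE 0.31, edgeR adjusted p = 0.000711), from counts of 71, 65 and 73 in Ufl1-KO against 25, 13 and 8 in NC. The gene spans chr7:125444676-125462269 (plus strand). Riox1, a nucleolar ribosomal oxygenase that hydroxylates the ribosomal protein Rpl8 in human cells, was at 8.29, 7.96 and 8.12 CPM in Ufl1-KO, against 5.23, 2.88 and 2.45 CPM in NC (log2 fold change 1.20, SE 0.24, edgeR adjusted p = 0.00187). Riox2, the oxygenase of the ribosomal protein Rpl27a in human cells, was at 20.7, 19.5 and 19.3 CPM in Ufl1-KO, against 15.2, 14.4 and 12.5 CPM in NC (log2 fold change 0.49, SE 0.10). Groups did not overlap for any of these 3 genes. NC replicate 1 was the NC library nearest to Ufl1-KO for Kdm8 and Riox1, and without it the log2 fold changes were 2.38 and 1.61.

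Jmjd8, whose product resides in the ER lumen, was at 13.2, 13.1 and 12.7 CPM in Ufl1-KO, against 6.61, 10.2 and 10.3 CPM in NC. It was higher by a log2 value of 0.53 (SE 0.16, edgeR adjusted p = 0.0169) and of 0.36 without NC replicate 1, and the call ended without Ufl1-KO replicate 1 (adjusted p = 0.0537). Jmjd4, the lysine hydroxylase of the translation termination factor eRF1 in human cells, was at 13.7, 16.2 and 13.2 CPM in Ufl1-KO, against 16.0, 6.20 and 8.44 CPM in NC. NC replicate 1 lay among the Ufl1-KO libraries, and the gene did not pass with it (log2 fold change 0.49, SE 0.29, edgeR adjusted p = 0.157) but was higher without it (0.99, adjusted p = 1.35e-06). Jmjd7 was low, at 3.04, 1.96 and 2.71 CPM in Ufl1-KO and 0.901, 3.26 and 1.84 CPM in NC, and passed only without NC replicate 2 (log2 fold change 0.94, adjusted p = 0.0404). Its gene overlaps a same-strand coding gene of the annotation, as does Alkbh3, which makes their counts uncertain.

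Jmjd6 was the exception of the JmjC-only genes. Its product hydroxylates lysines of splicing factors in human cells. It was at 148, 149 and 147 CPM in Ufl1-KO, against 297, 334 and 362 CPM in NC, 2.23-fold lower (log2 fold change -1.16, SE 0.08, edgeR adjusted p = 3.44e-06). Jmjd6 spans chr11:116837432-116843449 (minus strand), and overlaps Mettl23 on the opposite strand. Mettl23 was at 10.6 CPM in Ufl1-KO and 19.0 CPM in NC (log2 fold change -0.84, SE 0.12). Without a stated strand setting, reads of both genes in their overlap cannot be told apart. Because Jmjd6 held most of the class's level, the summed level of the 7 genes was 60.7% of NC although 4 of 7 rose. In all, 9 members overlap a coding gene on the opposite strand, and the neighbours of Jmjd4 (Snap47, log2 fold change -0.76) and Jmjd1c (Reep3, 0.72) were called with the sign opposite to the member's. The neighbours of Jmjd6 (Mettl23, above), Kdm2b (Rnf34, -0.41), Kdm5a (Ccdc77, -0.40) and Jmjd8 (Stub1, 0.24) were called with the same sign as the member. Stub1 averaged 92.2 CPM in Ufl1-KO and 77.8 CPM in NC, above Jmjd8 in both groups, and the part of its reads in the Jmjd8 count was not tested.

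The RNA demethylases of N6-methyladenosine (m6A, the commonest internal mark of mRNA) fell. Alkbh5, a nuclear m6A eraser and known HIF target in human cancer cells, was at 390.3, 403 and 376 CPM in Ufl1-KO, against 655, 739 and 751 CPM in NC (log2 fold change -0.88, SE 0.07, edgeR adjusted p = 7.76e-06). Alkbh5 spans chr11:60536381-60558512 (plus strand). Fto, which removes m6A and the related cap mark m6Am, was at 110.3, 112 and 111 CPM in Ufl1-KO, against 169, 228 and 222 CPM in NC (log2 fold change -0.89, SE 0.11, edgeR adjusted p = 8.87e-05). NC replicate 1 was the lowest NC library for both, and all Ufl1-KO libraries lay below it. Alkbh8, which modifies the wobble uridine of tRNA, was at 20.5, 23.1 and 20.97 CPM in Ufl1-KO and 18.9, 23.4 and 20.5 CPM in NC, with a log2 fold change of 0.04 (SE 0.10) that did not pass and turned negative in the FPKM fits (-0.10 to -0.12).

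Of the 3 AlkB members grouped under DNA repair, 2 fell. Alkbh2, which reverses alkylation of double-stranded DNA, was at 9.90, 9.11 and 9.51 CPM in Ufl1-KO, against 13.6, 14.0 and 12.7 CPM in NC (log2 fold change -0.50, SE 0.10, edgeR adjusted p = 0.00234). Alkbh3, which prefers single-stranded DNA and RNA, was at 5.38, 6.05 and 5.91 CPM in Ufl1-KO, against 7.15, 7.77 and 7.36 CPM in NC. Its call (log2 fold change -0.36, SE 0.13, edgeR adjusted p = 0.0294) was the least stable of the members and ended in 11 of 15 alternatives, with adjusted p up to 0.213. Alkbh1, a demethylase of tRNA and DNA, was at 13.3, 12.3 and 12.6 CPM in Ufl1-KO and 10.2, 18.3 and 13.5 CPM in NC and did not pass (log2 fold change -0.14, SE 0.19). Its sign was positive with library size scaling (0.04), in the FPKM fits (0.12 to 0.14) and without NC replicate 2 (0.12), and it passed only without NC replicate 1 (-0.32, edgeR adjusted p = 0.0187).

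The remaining AlkB genes moved apart. Alkbh4, a demethylase of an actin lysine, was at 5.99, 6.05 and 5.005 CPM in Ufl1-KO, against 4.15, 3.04 and 2.52 CPM in NC (log2 fold change 0.80, SE 0.20, edgeR adjusted p = 0.00592), and at 1.02 without NC replicate 1. Alkbh6, whose substrate is poorly known, was at 5.25, 5.18 and 6.36 CPM in Ufl1-KO, against 9.79, 11.5 and 10.4 CPM in NC (log2 fold change -0.92, SE 0.14, edgeR adjusted p = 0.000325). Groups did not overlap for either gene. Alkbh7, a mitochondrial protein needed for programmed necrosis after alkylation damage, was at 3.34, 2.73 and 3.29 CPM in Ufl1-KO and 2.28, 3.91 and 3.41 CPM in NC and did not pass (log2 fold change -0.03, SE 0.22, positive with library size scaling at 0.15 and in the FPKM fits at 0.15 to 0.19).

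The genes that write or read the same marks, or supply 2-oxoglutarate, showed a mix of directions. Of 10 H3K4 methyltransferase genes 5 were higher and 2 lower (median log2 fold change 0.19), with the catalytic subunits Kmt2d (0.86, SE 0.10) and Setd1b (0.97, SE 0.10) and the shared subunit Dpy30 (0.45, SE 0.12) higher and Kmt2c (-0.34, SE 0.10) lower. With library size scaling 6 of these were higher and 0 lower. Of 7 H3K9 methyltransferase genes 2 were higher, Setdb1 (0.59, SE 0.11) and Setdb2 (0.38, SE 0.12), and 1 lower, Prdm2 (-0.38, SE 0.06). The Polycomb complex PRC2, which writes H3K27 methylation, fell in 6 of 9 genes and rose in 1 (median -0.42), with Ezh1 (-1.07, SE 0.13), Ezh2 (-0.63, SE 0.08), EED (-0.77, SE 0.10) and Jarid2 (-1.32, SE 0.09) lower. Of 7 H3K36 methyltransferase genes 4 were lower and 2 higher, with Nsd3 (-0.68, SE 0.05), Ash1l (-0.45, SE 0.06) and Smyd2 (-0.86, SE 0.09) lower and Nsd1 (0.49, SE 0.07) higher.

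Of 8 genes of DNA methylation and of the base excision that follows TET oxidation, 3 were higher and 3 lower (median -0.18). The de novo methyltransferase Dnmt3a (-0.86, SE 0.08) and the glycosylase Mbd4 (-0.22, SE 0.08) were lower. Tdg (0.59, SE 0.15), the glycosylase that removes oxidised cytosines, and the endonuclease Apex1 (0.59, SE 0.12) were higher. Of 9 m6A writer genes 4 were higher and 2 lower (median 0.17), with the methyltransferase Mettl3 (0.68, SE 0.11) and its partner Wtap (0.47, SE 0.07) higher. The adaptor paralogs Rbm15b (1.59, SE 0.28) and Rbm15 (-1.12, SE 0.13) were on opposite sides. Of 8 m6A reader genes 6 were higher and 1 lower (median 0.28), with Igf2bp3 (1.81, SE 0.11), Ythdc2 (1.07, SE 0.21), Ythdf2 (0.81, SE 0.12) and Ythdf1 (0.26, SE 0.07) higher. Summed FPKM of the m6A writers was 125.5 to 132.8 in Ufl1-KO and 94.8 to 101.2 in NC, while that of Fto, Alkbh5 and Alkbh8 was 108.2 to 112.0 in Ufl1-KO and 157.6 to 185.8 in NC, without overlap in either. The latter sum is not of m6A erasers alone, because Alkbh8 acts on tRNA.

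**Figure D5:**
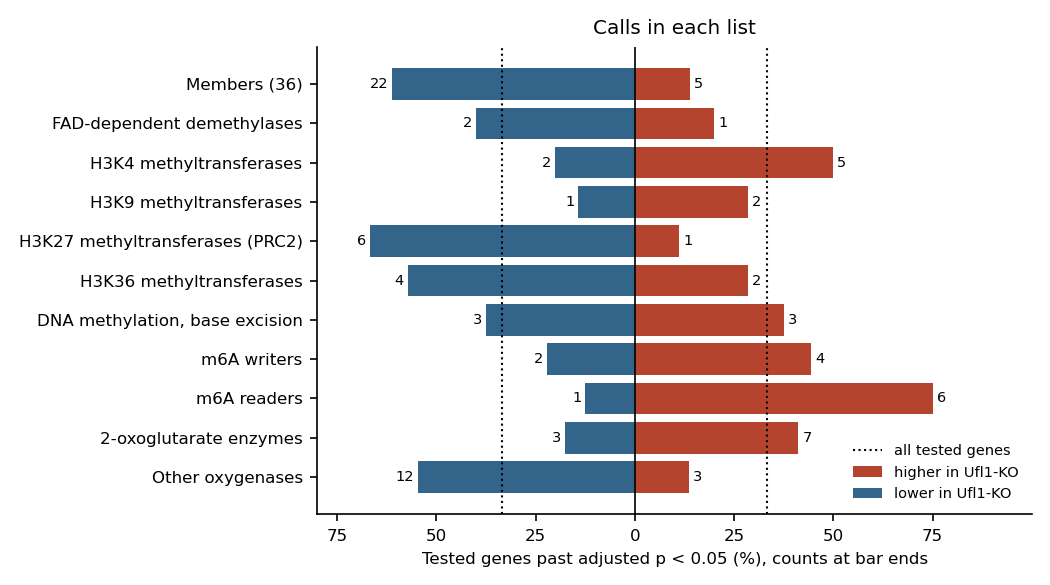
Share of the tested genes of each list that were called higher (right) or lower (left) in Ufl1-KO, with counts at the bar ends; dotted lines mark the shares over all tested genes. The members show 22 lower and 5 higher, the other oxygenases 12 lower and 3 higher, and the m6A readers 1 lower and 6 higher.

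Of the 17 genes measured that make or use 2-oxoglutarate or clear 2-hydroxyglutarate, 7 were higher and 3 lower (median 0.17). The cytosolic isocitrate dehydrogenase Idh1 (1.83, SE 0.11), the mitochondrial Idh3a (0.95, SE 0.08), Glud1 (0.51, SE 0.07) and the succinate dehydrogenase subunit Sdhb (0.75, SE 0.07) were higher. Other 2-oxoglutarate oxygenases, of which 22 were tested, fell in 12 and rose in 3 (median -0.26), with the collagen hydroxylases P4ha1 (-0.86, SE 0.05), P4ha3 (-1.25, SE 0.17) and Plod1 (-0.74, SE 0.07) and the phytanoyl-CoA hydroxylase relative Phyhd1 (-1.70, SE 0.28) lower. With library size scaling, which shifts the median of all genes by 0.18, the 2-oxoglutarate genes were higher in 13 and lower in 1, and the other oxygenases higher in 5 and lower in 5. The FAD-dependent demethylases take methyl groups from H3K4 without iron or 2-oxoglutarate. Among the 5 genes of this group Kdm1b rose (0.69, SE 0.10), its paralog Kdm1a had a log2 fold change of 0.10 (SE 0.07, edgeR adjusted p = 0.222), and the corepressors Rcor1 (-0.34, SE 0.06) and Rcor2 (-0.30, SE 0.10) fell. Kdm1a was added after its values were seen, and with library size scaling 0 of the 5 were lower. Whether any list differed from the members was not tested.

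The lower members were longer than the higher ones. The 22 lower members had a median implied length of 5730.2 bases and the 5 higher members 2139 bases, against 2855 bases for all lower and 2919 bases for all higher genes. Alkbh2, Alkbh6, Alkbh3 and Jmjd6, at 902 to 1526 bases, are short members that fell. In NC replicate 1, 18 of 36 members lay above the mean of NC replicates 2 and 3, as did 6001 of 12224 tested genes. The share differed by call. NC replicate 1 lay above for 2858 of 4069 genes called higher and 1274 of 4088 called lower, so it leaned toward Ufl1-KO. For the members these counts were 4 of 5 and 9 of 22. Without that library 8 members were higher and 23 lower, including all 27 called with it, and those added were Jmjd4, Kdm4a and Phf2 as higher and Alkbh1 as lower.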

How the data were processed

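Libraries of total RNA from 3 Ufl1-KO and 3 NC MEF samples were analysed. The submitters' processing notes name fastp 0.20.1, STAR 2.7.7a and featureCounts 2.0.0. They list mm10 as well as the human builds hg38 and GRCh38, without roles. Annotation, strand setting and the origin of fractional values were not given in the sources used here. Estimated counts were deposited by the authors without normalisation; rows whose symbols match in any case were summed (18134 names) and then rounded. Rows without a gene name, 1225 in number and 0.594% to 0.661% of counts, were left out. The deposited FPKM values, scaled by the authors, use a length that varies between libraries for many genes.

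The test was edgeR's quasi-likelihood F test (edgeR 4.0.16 under R 4.3.3) with TMM scaling, filterByExpr and a single genotype term. P-values were two-sided and Benjamini-Hochberg adjusted over all 12224 genes, with a threshold of 0.05. CPM uses TMM-scaled totals. SE is the log2 fold change divided by the root of F. A permutation test of 3 libraries against 3 cannot go below p = 0.1. Alternatives used DESeq2 1.42.0, limma 3.58.1 on log2(FPKM + 1), with and without a minimum mean FPKM of 0.1, or on log2(FPKM + 0.1), other scalings and filters, unsummed rows, a replicate block and each library left out. Coordinates are GENCODE M21 and promoters RefSeq GRCm38.p6. Replicates differed by more than sampling noise, with a chi-square per gene of at least 2.35. The procedure was tested on simulated data in which few genes changed, in both directions alike. That simulation does not probe the scaling where most genes are called, as they were here.

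Members, lists and the rule for named genes were chosen with earlier results of these data known. All members were named, values of every library were given, and up to 4 called genes with the smallest p were named from each companion list. Marker lists are given as sums. Figures used Python 3.11.15 and matplotlib 3.10.9.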

Additional observations from a re-analysis of the deposited data

How the results depend on the processing

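Over 15 alternatives the members called lower numbered 16 to 23 and those called higher 4 to 8, against 22 and 5. Of the 27 called members, 20 kept their call and direction under all alternatives, and no called member changed sign. The members Alkbh1, Alkbh7 and Alkbh8, which did not pass, changed sign under several. The count of higher members moved most without NC replicate 1, to 8. Leaving out any 1 library gave 4 to 8 higher and 19 to 23 lower members. With library size scaling the median of all genes shifted to 0.18, and 7 members were higher and 18 lower. The whole-transcriptome split was then 63.2% higher among called genes (5365 higher and 3119 lower), against 49.9% with TMM (4069 and 4088). In each FPKM fit 7 members were higher and 16 lower. The calls of Alkbh3, Jmjd1c, Kdm5b and Tet3 ended with library size scaling, and those of Kdm2a and Kdm2b in the FPKM fits. The cause was not tested. Replicate numbers did not pair the libraries, with correlations of same-numbered deviations of 0.018, -0.175 and 0.013. The replicate block gave 5 higher and 20 lower members, without Alkbh3 and Kdm5b, and 3892 higher and 3910 lower genes. Depth limits Kdm4d, Jmjd7, Kdm8 and Alkbh7, each with under 100 counts in every library.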
